A study of Mus musculus with 3 samples.

Results

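Upstream antisense poly(A) sites are places where RNA made backwards from a promoter, away from the gene, was cleaved and polyadenylated. They were taken here as the autosomal sites (chromosomes 1 to 19) that the deposited site lists class as AU, and 1357 of 171741 listed autosomal sites (0.790%) carried that class. The lists do not spell the class out. It was read from position: 1345 of the 1357 sites lay upstream of the closest GENCODE M21 gene start on the opposite strand, called the partner gene below. The sites came from 3' end sequencing (PAS-seq, made with the QuantSeq protocol) of total RNA from F121-9 cells, a hybrid mouse embryonic stem (ES) cell line with 1 parental genome from CAST and the other from 129. There was 1 group of 3 libraries, untreated as far as the labels say, all from cells at passage 14 and each from 500 ng of RNA. The line stands for 1 hybrid genotype, and the lists do not separate the parental alleles. The labels number the libraries as replicates 1 to 3 but do not say which step was repeated, so the spread between them may be partly technical.

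Many mammalian promoters start transcription in both directions. The RNA made upstream and antisense is usually short, ends at early poly(A) signals and is degraded in the nucleus by the RNA exosome. The sense direction is known to be shielded from such early ends by U1 snRNP, the particle that recognises 5' splice sites and also holds back nearby poly(A) signals. The main signal for cleavage is the hexamer AATAAA a short way upstream of the site, with ATTAAA as its most common variant.

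Levels are in RPM, reads at a site scaled by the authors to their library total. The lists held 10147672, 13513327 and 13040620 reads in replicates 1, 2 and 3, and with the RPM totals, which also count reads off the listed sites, 1 read was worth between 0.0673 and 0.0902 RPM. ES cell markers were present as the label says: 8 of 9 had a mean of at least 10 RPM, and their sum lay between 3067 and 3621 RPM. The exception was Dppa5a at 0.314 RPM. Of 6 fibroblast markers, which a feeder layer would bring, Postn was at 0 and 2 (Thy1 and Vim) passed 10 RPM. Col1a1 had 0.0902, 0.606 and 6.11 RPM and Col1a2 0, 1.08 and 3.20 RPM in replicates 1, 2 and 3. The mean of Col3a1 was 0.0898 RPM. Replicate 3 listed no read on X, Y or the mitochondrial genome, so all shares below are of autosomal reads.

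The sequence around the leading sites showed what kind of end they were. Each window holds the 50 bases up to the cleavage site and the 20 bases after it, on the strand of the antisense RNA, from GRCm38.p6 (the mm10 build of the lists), and capitals mark the hexamers that the lists give for the site. The first 4 are sites upstream of protein-coding genes with a main signal in its usual place, or, at Prmt5, with none of the listed hexamers.
Prmt5, chr14:54517785-54517854, plus strand: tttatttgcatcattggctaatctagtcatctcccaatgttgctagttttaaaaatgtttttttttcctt
Pomt1, chr2:32236425-32236494, minus strand: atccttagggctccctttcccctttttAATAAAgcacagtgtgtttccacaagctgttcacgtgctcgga
Rpp25, chr9:57503762-57503831, minus strand: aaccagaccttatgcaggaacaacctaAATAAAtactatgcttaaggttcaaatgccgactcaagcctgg
Tbc1d22a, chr15:86213756-86213825, minus strand: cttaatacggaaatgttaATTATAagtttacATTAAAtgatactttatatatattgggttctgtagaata

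The next windows belong to leading sites that shared stretches of sequence with each other. They are shown because shared sequence can bear on how surely a read is placed, which was not tested. The longest run of identical bases was 13 between the windows at Gm26612 and 4930461G14Rik and 14 between those at Ywhaq-ps2 and Gm11539, against a median of 6.5 over 120 pairs of windows. Zscan5b and Gm11539 also shared a run of 14. Prmt5 and Zscan5b shared a run of 12 with only 13 of 70 positions identical, so such a run alone does not make 2 windows copies.
Gm26612, chr17:88160463-88160532, plus strand: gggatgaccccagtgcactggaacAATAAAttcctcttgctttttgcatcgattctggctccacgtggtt
4930461G14Rik, chr9:58454724-58454793, minus strand: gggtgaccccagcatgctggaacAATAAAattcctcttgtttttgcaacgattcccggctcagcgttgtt
Ywhaq-ps2, chr5:114829546-114829615, plus strand: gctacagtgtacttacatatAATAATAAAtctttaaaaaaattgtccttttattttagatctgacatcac
Gm11539, chr11:96248226-96248295, minus strand: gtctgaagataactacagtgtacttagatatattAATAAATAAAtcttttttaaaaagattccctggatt

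At 3 of the leading genes the whole stretch from the base upstream of the gene start to the antisense site is shown. It gives the course that the antisense RNA would take, with the listed hexamers in capitals, and at Zfp933 also GTAAGT, a strong match to the 5' splice site.
Pomt1, chr2:32236445-32236589, minus strand: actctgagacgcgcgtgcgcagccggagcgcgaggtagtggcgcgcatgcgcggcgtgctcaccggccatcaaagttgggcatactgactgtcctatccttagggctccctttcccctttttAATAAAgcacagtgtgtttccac
Rpp25, chr9:57503782-57504025, minus strand: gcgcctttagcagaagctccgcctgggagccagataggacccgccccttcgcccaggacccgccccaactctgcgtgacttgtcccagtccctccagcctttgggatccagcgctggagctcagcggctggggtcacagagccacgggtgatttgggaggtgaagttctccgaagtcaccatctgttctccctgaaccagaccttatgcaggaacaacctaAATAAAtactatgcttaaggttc
Zfp933, chr4:147848367-147848633, plus strand: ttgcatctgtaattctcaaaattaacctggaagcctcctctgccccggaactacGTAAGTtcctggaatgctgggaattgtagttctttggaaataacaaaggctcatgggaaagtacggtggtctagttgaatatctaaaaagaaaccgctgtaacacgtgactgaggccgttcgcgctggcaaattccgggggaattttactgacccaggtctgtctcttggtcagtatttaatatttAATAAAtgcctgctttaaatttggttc
GC content was 58.6% over the 145 bases at Pomt1, 57.8% over the 244 bases at Rpp25 and 42.7% over the 267 bases at Zfp933. Around these ends it was lower, with 47.1%, 41.4% and 28.6% GC in the 70-base windows at Pomt1, Rpp25 and Zfp933.

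Upstream antisense ends were rare in the RNA of these cells. The members held 5308, 7805 and 7849 reads in replicates 1, 2 and 3, or 0.0569%, 0.0624% and 0.0602% of autosomal reads (0.0598% ± 0.00278, SD, n = 3). The 3 libraries thus gave nearly the same share. The number of member sites with reads differed more, at 466, 734 and 540. Reads in every library were found at 103 members (7.59%), while 177 had reads in 2 libraries and 1077 in 1 library only. Over all autosomal sites the share in every library was 18.6%, and it was 6.80% for intergenic sites, 6.17% for sites antisense to introns and 40.6% for terminal exon sites. The share among members was close to that of the other unannotated sites and far below that of annotated gene ends.

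Most members rested on a handful of reads, and a few sites held much of the signal. The median member had 4 reads over all libraries, 432 members (31.8%) had a single read, and 34 had 100 or more. The leading site took 4.93% of all member reads, the leading 10 took 21.5% and the leading 50 took 44.7%. The 103 sites seen in every library held 50.8%. A mean of at least 1 RPM was reached by 95 members (7.0%), against 16.8% of all autosomal sites. It was reached by 37.6% of terminal exon sites, 5.16% of intergenic sites and 4.30% of sites antisense to introns.

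The site with most reads lay 309 bases upstream of Prmt5, the gene of an arginine methyltransferase, and gave 22.5, 27.2 and 27.0 RPM in replicates 1, 2 and 3 (25.6 ± 2.68, SD, n = 3). Prmt5 itself had 159, 148 and 180 RPM. Throughout, a gene's level counts own-strand sites in its exons or up to 1000 bases past its end. The antisense site was steady between libraries and carried none of the 18 hexamers of the lists. The lists gave 17.1, 22.0 and 20.3 RPM at 380 bases upstream of the pseudogene Ywhaq-ps2. They gave 12.2, 10.3 and 10.5 RPM at 420 bases from the long noncoding gene Gm46447, and 10.6, 9.90 and 7.89 RPM at 124 bases from the pseudogene Gm46190. None of these 3 partners had a read counted to it. Both Ywhaq-ps2 and Gm46447 sites had a listed hexamer and the Gm46190 site had none. The Ywhaq-ps2 site lay inside a RefSeq transcript, Gm46920, on its own strand.

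Among protein-coding partners, Pomt1, which encodes a protein O-mannosyltransferase, had its antisense site only 145 bases upstream, at 10.1, 4.44 and 7.39 RPM. The gene itself had 18.6, 29.4 and 23.4 RPM. The site of Tbc1d22a, a gene with the TBC domain of Rab GTPase regulators, lay 683 bases upstream and gave 7.04, 7.67 and 6.83 RPM, a ratio of 1.12 between its highest and lowest library. Replicates 1 to 3 gave 5.50, 3.43 and 10.2 RPM upstream of the zinc finger gene Zfp933, and 3.43, 6.73 and 9.39 RPM upstream of the zinc finger gene Zscan5b. These exceeded the reads of the genes, which were at 1.26, 3.10 and 3.70 RPM for Zfp933 and at 0.722, 0.942 and 0 RPM for Zscan5b. At Sncg, the gamma-synuclein gene, the antisense site had 6.22, 2.83 and 5.33 RPM and the gene 0.722, 1.28 and 0.782 RPM. In each library the site was thus above its gene's level at these 3 promoters. The Zscan5b site shared stretches of sequence with 3711 other autosomal sites (below), so its value is uncertain.

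Other leading sites differed strongly between libraries. The site 751 bases upstream of the noncoding gene Gm26612 gave 23.1, 14.1 and 2.20 RPM, a ratio of 10.5 between its highest and lowest library. The site of 4930461G14Rik gave 9.38, 7.20 and 1.64 RPM. Both were lowest in replicate 3, and their windows are the pair with a shared run of 13 bases printed above. In the opposite direction, the site 244 bases upstream of Rpp25, which encodes a subunit of RNase P and RNase MRP, gave 1.44, 2.89 and 8.82 RPM while Rpp25 stayed between 108 and 142 RPM. The site upstream of Il17d, a cytokine gene, gave 2.71, 4.11 and 8.75 RPM. Both were highest in replicate 3. Near Gm47251, the remaining member of the leading 15 upstream of its partner, the values were 7.04, 3.84 and 4.76 RPM.

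**Figure D1:**
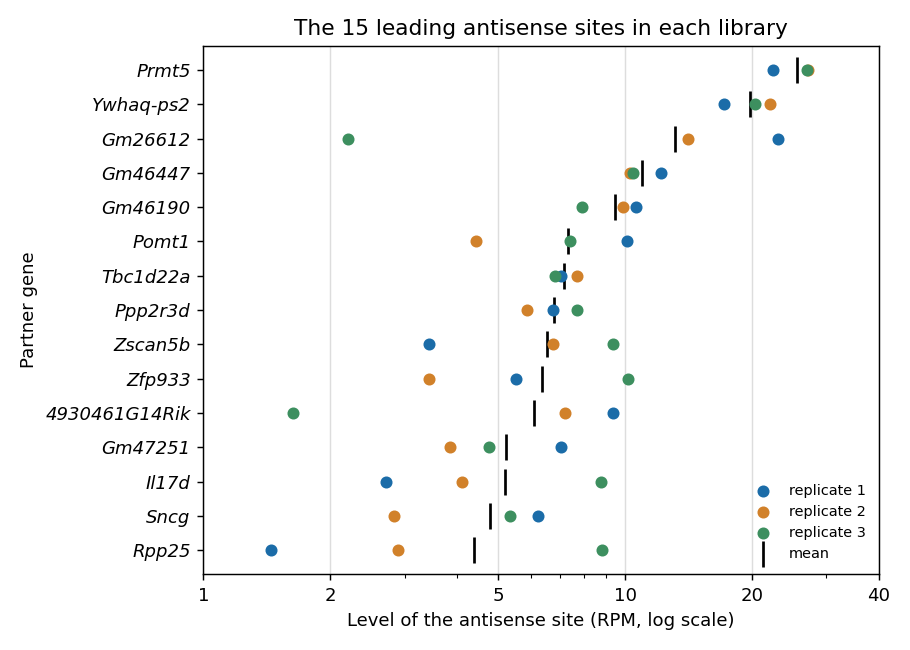
Level of the 15 leading antisense sites (RPM, log scale), 1 row per partner gene, with 1 point per library and a bar for the mean. The Prmt5 site lies between 22.5 and 27.2 RPM in all libraries, while the sites of Gm26612 and 4930461G14Rik drop in replicate 3 and that of Rpp25 runs from 1.44 to 8.82 RPM.

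Shared words of sequence were frequent for some of these sites. In the 50 bases before the site, 6367 other autosomal sites shared at least 3 words of 12 bases with the Ywhaq-ps2 site, and 45 of them were members. That is 3.71% of other autosomal sites and 3.32% of other members, so the share among members was close to that among all sites. With the Zscan5b site 3711 other sites shared as much, 32 of them members (2.16% of other sites and 2.36% of other members). Only 63 other sites shared as much with the Gm26612 site, among them 2 members, 4930461G14Rik and Gm4349. Summed over those 63 sites the level was 272, 301 and 284 RPM in replicates 1, 2 and 3, so the low value in replicate 3 was not shared by the group as a whole. How reads that match several places were assigned is not given in the sources used here, so values at sites that share sequence, and at sites upstream of pseudogenes, are uncertain. Repeat-masked sequence held the base at the site for 47.3% of members, 62.4% of intergenic sites, 63.2% of sites antisense to introns and 26.3% of terminal exon sites.

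Agreement between libraries was moderate. Among the 95 members at 1 RPM or more, 63 (66.3%) had reads in every library, and the median coefficient of variation was 82.7%. Scaled to autosomal reads, 31 of the 95 were highest in replicate 1, 22 in replicate 2 and 42 in replicate 3. Between a mean of 1 and 10 RPM the median coefficient of variation was 84.6% for members, 76.5% for intergenic sites, 57.2% for terminal exon sites and 63.1% for all autosomal sites. Across the 103 members with reads in every library, Pearson's r of the log2 levels was 0.684 for replicates 1 and 2, 0.577 for 1 and 3 and 0.615 for 2 and 3. These are correlations across sites that share their libraries, given as a description.

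The members filled the first 1000 bases upstream of their partner and stopped there. The median distance was 505 bases (quartiles 288 and 735), and the largest was 1014. By library the median was 506.5, 512.5 and 492.5 bases (504 ± 10.3, SD, n = 3). That edge shows that the class itself ends at about 1000 bases, so the lack of farther members is not a measurement. Within the range, members were fewer close to the start: 100 lay within the first 100 bases and 172 between 400 and 499. The 12 members that were not upstream of the closest opposite start included 4 inside Ppp2r3d, all in exons of a RefSeq transcript, 4930526I15Rik, on their own strand. The highest of them, at 6.77, 5.86 and 7.68 RPM, was among the leading 15. Which start gave these 12 their class is not given in the lists.

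**Figure D2:**
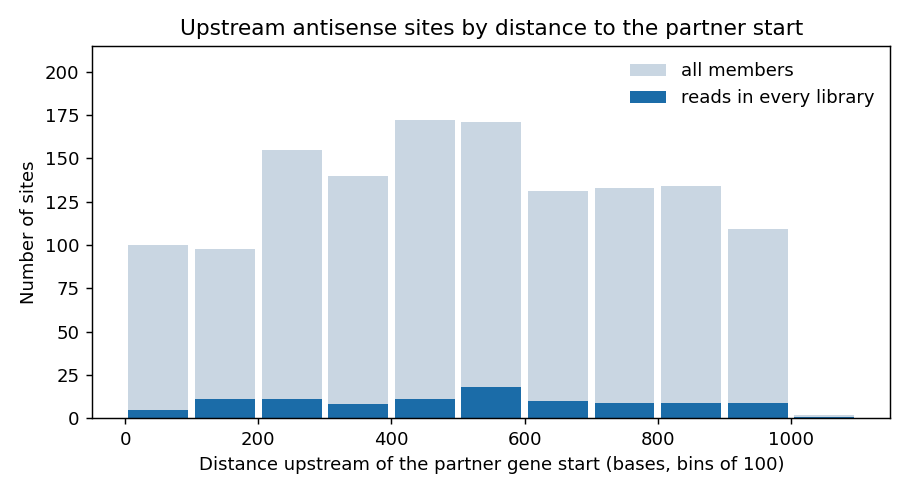
Number of upstream antisense sites in bins of 100 bases upstream of the partner gene start, all members in grey and members with reads in every library in blue. Counts run from 98 to 172 per bin below 1000 bases, and the class ends just past that point.

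Most members lay outside known transcripts on their own strand. None lay inside a GENCODE M21 gene on its own strand, 134 (9.87%) lay inside a RefSeq transcript, and 72 of these were in an exon of one. Members inside a RefSeq transcript held 13.2% of member reads. No member was closer than 1009 bases to the end of a gene on its own strand, and 134 were within 5000 bases of one. The lists were annotated with M21 and put sites within genes or just downstream of them in other classes. The lack of members in M21 genes and the edge at 1009 bases can thus be set by the class, and they are not measurements.

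AATAAA was the leading signal, at 394 members (29.0%) and 50.3% ± 2.56 (SD, n = 3) of member reads. ATTAAA without AATAAA was at 103 members (7.59%) and 10.7% ± 0.157 of reads. Another listed hexamer alone was at 247 members (18.2%), and 613 members (45.2%) had none. Members without a hexamer held 26.5% ± 1.71 of reads, or 22.7% ± 1.67 without the Prmt5 site. The deposited offset of AATAAA from the site had a median of -22 bases (quartiles -27 and -18), and 107 members had AATAAA more than once. In a control window of 40 bases that starts 100 bases downstream of the site, past the end of the RNA, AATAAA was found at 2.65% of members.

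Sites with a main signal were read more. In replicates 1, 2 and 3 the median level of members with AATAAA or ATTAAA was 0.812, 0.539 and 0.782 RPM. That of members with neither was 0.180, 0.135 and 0.178 RPM. Only members with reads in the library entered. In reads the medians were 9, 8 and 11 with a main signal and 2, 2 and 2.5 with neither, the latter close to the floor of 1 read. The second group includes members with another listed hexamer as well as those with none. The groups of medians did not overlap. On the log2(RPM + 0.05) scale the difference of medians was 1.90, 1.67 and 1.89 (1.82 ± 0.129, SD, higher in 3 of 3 libraries). With a pseudocount of 0.5 it was 0.860. An exact two-sided sign-flip permutation test over 3 libraries cannot go below p = 0.25, the value found here, and the Benjamini-Hochberg adjusted value over the 5 such tests was 0.417. AATAAA was also more frequent among members with reads in every library, at 45.6%, than among those with reads in 1 library, at 25.4%. The same held for intergenic sites, at 51.3% and 25.1%. A-rich sequence just downstream of the site, which can capture the oligo(dT) primer of the assay, was found at 9.36% of members, and at 13.2% of members without a hexamer against 5.84% of those with AATAAA. Its part in the difference was not tested.

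With every listed site counted, the share with AATAAA differed from that of other unannotated sites by less than the spread between libraries. AATAAA was at 35.0%, 31.9% and 30.4% of members with reads in replicates 1, 2 and 3. The mean difference to intergenic sites was -0.0655 percentage points ± 3.42 (SD, n = 3), with values of 3.37, -3.48 and -0.088 that changed sign between libraries (p = 0.75, exact two-sided sign-flip permutation test). Against sites antisense to introns it was 0.622 ± 4.81 percentage points (p = 0.75, same exact test). With only sites that had reads in at least 2 libraries, members were lower by more than the spread, with differences of -3.93 ± 2.03 percentage points against intergenic sites and -4.44 ± 1.64 against sites antisense to introns (exact p = 0.25 for each, the smallest possible). Against terminal exon sites, the ordinary ends of genes, the difference over every listed site was -3.0 ± 2.21 percentage points and lower in 3 of 3 libraries (exact p = 0.25, adjusted 0.417). Among sites with reads in at least 2 libraries that last difference turned to 2.50 percentage points, and with each site weighted by its RPM it was -15.1 ± 3.06.

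The share with AATAAA changed with the distance from the gene. Each library's share was taken over the members with reads in it. It was 20.5% ± 2.63 (SD, n = 3 libraries) up to 249 bases from the start and 30.1% ± 4.32 from 250 to 499. It was 38.0% ± 2.89 from 500 to 749 and 39.3% ± 3.29 from 750 bases on. The 3 libraries gave 18.1% to 23.3% in the nearest band and 36.0% to 42.6% in the farthest, with no overlap. The numbers of members behind these shares were 278, 387, 363 and 317. GC content of the 50 bases up to the site went from 49.9% to 37.9% over the same bands, and the share of repeat-masked sites from 33.8% to 58.4%. Their part in the change was not tested. The share of members with reads in every library was 7.55% in the nearest band and 8.52% in the farthest, a much smaller change than that of the signal.

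**Figure D3:**
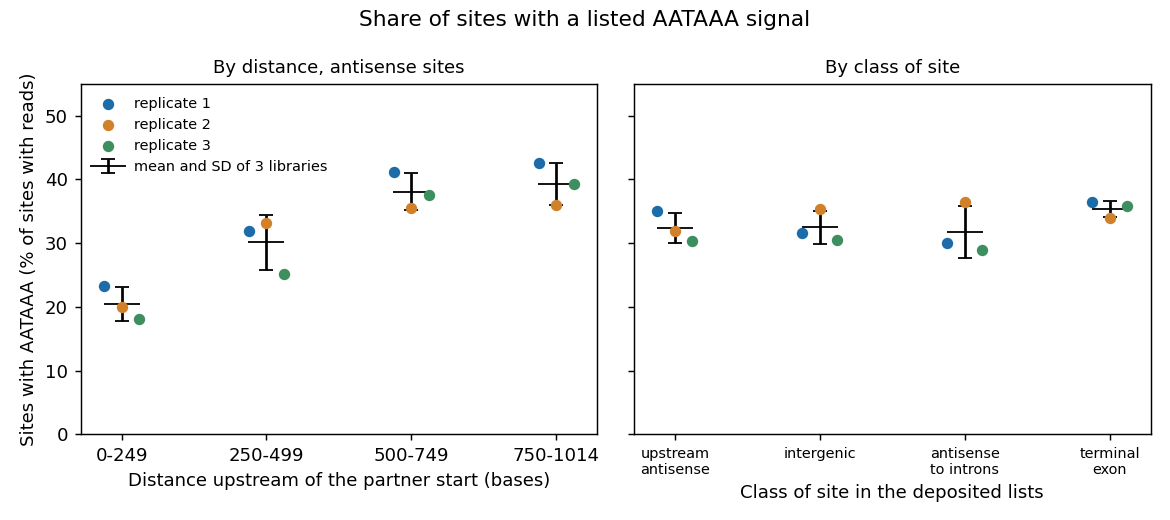
Share of sites with reads that have a listed AATAAA, 1 point per library with the mean and SD of 3 libraries, by distance upstream of the partner start (left) and by class of site (right). The share goes from 20.5% near the gene start to 39.3% beyond 750 bases, while over every listed site upstream antisense sites differ from intergenic ones by -0.0655 ± 3.42 percentage points.

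At 17 promoters at least 2 members had reads in 2 or more libraries, and 16 of these reached a summed mean of 0.5 RPM and were tested. The site farther from the gene start was the higher one at 10 of 16 promoters (62.5%) and the nearer at 1 (6.25%), by limma on the within-library log2 ratio (called where p, adjusted by Benjamini-Hochberg, was under 0.05 and the ratio 2 or more). The exception was Ppp2r3d, where neither site is upstream of the start, and without it the count was 9 of 15. The sites of a pair were 24 to 280 bases apart, with a median of 85. Among the 10 promoters AATAAA was listed only for the farther site at 5, for both at 2 and for neither at 3. Over all 16 tested promoters these counts were 8, 2 and 5, and it was listed only for the nearer site at 1. A signal at the farther site only was thus as frequent among all tested promoters as among those called. The count was sensitive to the test, since edgeR's quasi-likelihood test on the recovered reads called 2 promoters farther and 1 nearer (DESeq2 9 and 1), and leaving out replicate 2 left 1 and 1. All 10 kept the farther site higher when each replicate was left out in turn.

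Of the promoters called farther the one with most reads was Prmt5. Its site at 239 bases had 0, 0.471 and 1.21 RPM and that at 309 bases 22.5, 27.2 and 27.0 RPM, a mean log2 ratio of 6.32 (SE 1.22, limma adjusted p = 0.000252, higher in 3 of 3 libraries). Here limma's SE and p also draw on the spread at the other tested promoters, not on this promoter's values alone. The ratio at Prmt5 depends on the pseudocount, and was 4.79 with 0.5 in place of 0.05. edgeR's adjusted p for it was 0.0605 and DESeq2's 0.000205. At Gm47251 the site at 793 bases had 0.0902, 0.135 and 0.0711 RPM and the one at 925 bases 7.04, 3.84 and 4.76 RPM (log2 ratio 5.12, or 3.22 with the larger pseudocount, limma adjusted p = 0.000887), and edgeR called this pair too, with an adjusted p of 0.0383. At Il17d the values were 0.361, 0.875 and 0 RPM at 493 bases and 2.71, 4.11 and 8.75 RPM at 659 bases, and AATAAA was listed for both sites. Tchp, which encodes trichoplein, had 0, 0.538 and 0.498 RPM at 410 bases and 0.722, 6.80 and 2.70 RPM at 549 bases, where AATAAA was listed 3 times. At Sncg the nearer site, at 105 bases, had 1.08, 2.96 and 0 RPM and the farther, at 175 bases, 6.22, 2.83 and 5.33 RPM. That call was the least secure of these 5: the farther site was higher in 2 of 3 libraries, and the limma adjusted p of 0.0381 rose to 0.265 without replicate 3. At Ppp2r3d, the call in the other direction, the nearer site had 6.77, 5.86 and 7.68 RPM and the farther 0.0902, 0.135 and 0 RPM (log2 ratio -5.96, limma adjusted p = 0.000252), and AATAAA was listed for the nearer only.

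The partners were mostly protein-coding genes. They stood at 920 members (67.8%), 817 different genes, and took 66.8% ± 3.29 (SD, n = 3) of member reads. Pseudogenes were partners of 204 members, long noncoding genes of 179 and small RNA genes of 49. Of 1226 partners, 1113 had 1 member and 113 had more, up to 5 at 1 gene. Median distances hardly differed between these classes, at 505 bases for protein-coding, 475.5 for pseudogene and 514 for long noncoding partners. Sites upstream of pseudogenes had more repeat-masked sequence (64.7%) than those of protein-coding genes (41.8%).

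Genes with higher levels more often had an upstream antisense site. Of 6645 protein-coding genes with no reads counted to them 1.19% had one, and of genes under 1 RPM 2.63%. The share was 4.11% from 1 to 10 RPM and 6.27% from 10 to 100 RPM. Of 1585 genes at 100 RPM or more it was 8.64% (95% exact binomial interval 7.31% to 10.1%). The order was the same in each library alone, with genes grouped by their level in that library. There the share went from 0.530% to 3.09% in replicate 1, from 0.67% to 5.23% in replicate 2 and from 0.576% to 3.88% in replicate 3. Among the 11466 genes at 1 RPM or more, called expressed below, 667 (5.82%, interval 5.40% to 6.26%) had a member. These intervals cover counting error only. The expressed partners had a median level of 31.7 RPM against 18.7 RPM for all expressed genes.

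**Figure D4:**
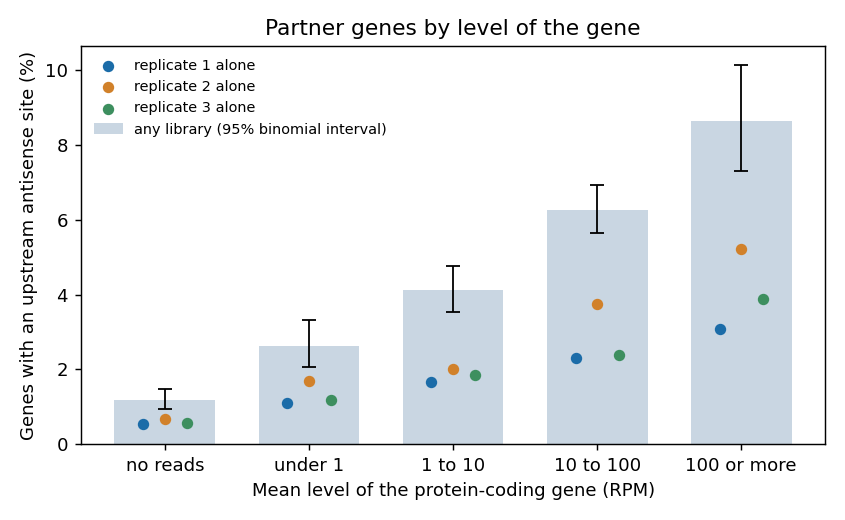
Share of protein-coding genes with an upstream antisense site by the level of the gene (RPM). Bars are for all libraries together by mean level, with a 95% exact binomial interval. Points are for each library alone, with genes grouped by their level in that library. The bars go from 1.19% of genes with no reads to 8.64% of genes at 100 RPM or more, in the same order in every library.

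The amount of antisense signal followed the amount of gene signal only weakly. Over 664 expressed partners with a member upstream, the members' RPM was a median 0.502% of the gene's (quartiles 0.121% and 2.19%). It was at least 10% of the gene's at 41 partners and above the gene's at 1. Spearman's rho between both levels was 0.111 across genes, which are not independent replicates and share their libraries.

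Partner genes were also looked up in lists of gene functions. Of 22 expressed genes of core and naive pluripotency, 3 were partners: Klf5, Pou5f1 and Zfp42. Pou5f1, which encodes the factor Oct4, had 1.35 RPM at 349 bases upstream in replicate 1 and 0 in both others. That site lay in an exon of a RefSeq transcript, Gm32362, on its own strand. The Klf5 site had 0.812 RPM in replicate 1 only, and the Zfp42 site 1 read in replicate 3. None of the 3 had reads in more than 1 library.

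The list of U1 snRNP and early termination factors had 3 partners among 25 expressed genes, and all 3 had a member with reads in every library. Among all 11466 expressed genes 667 were partners, and 59 of these had such a member. The list's median level was 84.1 RPM, above that of all expressed genes. Luc7l, a U1-associated splicing factor, had 3.34, 2.29 and 0.711 RPM at 408 bases, with AATAAA listed at that site and A-rich sequence just downstream of it. Supt5, a subunit of the elongation factor DSIF, had 0.180, 0.135 and 3.27 RPM at 780 bases, also followed by A-rich sequence. The part of A-rich sequence in these values was not tested. Snrnp70, the U1 protein that binds its RNA, had 0.541, 1.08 and 0 RPM at 754 bases and its every-library site at 474 bases, at 0.0902, 0.135 and 0.142 RPM. The Supt5 and Snrnp70 sites at those larger distances were among the 45 that shared words with the Ywhaq-ps2 site.

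Among 80 ribosomal protein genes, 13 (16.2%) were partners and 2 of these had a site with reads in every library. Of all genes at 100 RPM or more, 8.64% were partners and 1.14% had such a site. The Rps12 site at 807 bases gave 4.15, 1.01 and 0.213 RPM, beside 4223 RPM for the gene. The Rpl10l site at 374 bases gave 3.16, 2.76 and 3.56 RPM, with no listed hexamer and A-rich sequence just downstream. Many ribosomal protein genes have near-identical copies, so these values are uncertain. The cleavage and polyadenylation list had 3 of 17 (Cpsf6, Papola and Wdr33), the chromatin list 3 of 19 (Ezh2, Smc3 and Suz12), the replication list 2 of 19 (Rpa2 and Rrm2) and the RNA decay list 2 of 22 (Tent4b and Xrn2). Rrm2, a subunit of ribonucleotide reductase, had 0.902, 0.740 and 0.142 RPM at 986 bases. Of the others named here only Rpa2 had reads in more than 1 library. The Ezh2 site lay in an exon of a RefSeq transcript, F830010H11Rik, on its own strand. All lists had median levels of 48.1 to 311 RPM, above the 18.7 RPM of all expressed genes, of which 5.82% were partners.

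The promoters themselves held more AATAAA in the antisense direction than in the sense direction. Motifs were searched on the antisense strand of the 1000 bases upstream and on the sense strand of the first 1000 bases of the gene. Over all 20807 protein-coding genes AATAAA occurred 0.701 times per 1000 bases in the antisense direction and 0.352 times in the sense direction, and 40.8% and 24.5% of genes had at least 1. In expressed partners the densities were 1.08 and 0.223, and in expressed genes without a member 0.613 and 0.241. The sense sides were thus alike in both sets, and the antisense sides were not. Partners were chosen through sites that often have AATAAA, so this excess is not independent of the choice.

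GTAAGT had the opposite tilt. It occurred 0.160 times per 1000 bases in the antisense direction and 0.253 times in the sense direction over all protein-coding genes, with at least 1 copy at 14.6% and 22.3% of them. In expressed partners the values were 0.118 and 0.174, and in expressed genes without a member 0.154 and 0.194. Between the start and the site of the 895 members at least 30 bases upstream of a protein-coding partner, GTAAGT was found 44 times, and 87 times in the same lengths of the sense side. At least 1 copy was present at 40 members (4.47%) and in 82 (9.16%) of the sense stretches. Before the last 40 bases, 163 of the 895 (18.2%) had passed another AATAAA. These are matches of letters and do not show a bound factor. CpG-rich promoters made up 74.7% of expressed partners and 68.3% of expressed genes without a member.

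Counted around all 11466 expressed genes, and with every antisense site within 2000 bases upstream included whatever its class, there were 96.7, 134 and 101 antisense sites per 1000 genes in replicates 1, 2 and 3. Sense sites within the first 2000 bases of the gene numbered 163, 195 and 163 per 1000 genes. The antisense side was lower by 63.0 ± 2.87 (SD) in 3 of 3 libraries, with p = 0.25 in the exact two-sided sign-flip permutation test, its smallest possible value, and an adjusted 0.417. Within 1000 bases of the start the difference was -12.3 ± 4.72. The sense count includes the ordinary ends of short genes. With sense sites classed as intronic only, 59.0 ± 8.93 per 1000 genes, the direction turned and the antisense side was higher by 51.6 ± 11.2 in 3 of 3 libraries. Only the sense side was restricted there. The antisense side kept sites of every class, which can include ends of neighbouring genes, so these 2 sets are unlike. The antisense profile was lowest in the 100 bases next to the start, with 2.53 to 3.23 sites per 1000 genes, and stood at 5.84 to 8.81 between 401 and 500 bases.

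**Figure D5:**
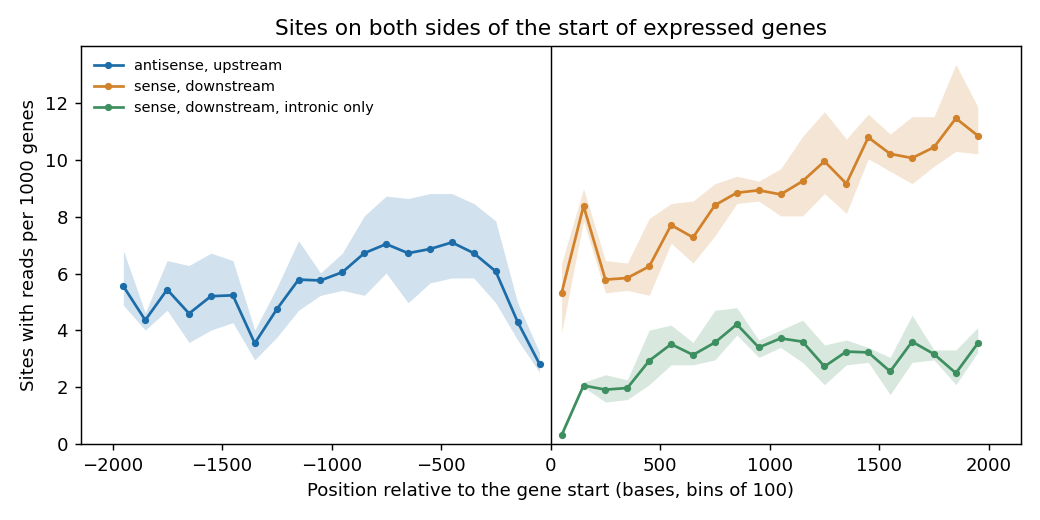
Sites with reads per 1000 expressed genes in bins of 100 bases on both sides of the gene start, antisense upstream (blue), sense downstream (orange) and sense downstream classed as intronic (green). Lines are means of 3 libraries and bands run from the lowest to the highest library, with antisense counts above the intronic sense counts and below the full sense counts over most of the range.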

How the data were processed

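Each library came with a list of poly(A) sites on mm10 with annotation M21, per the text files deposited with the libraries, with aligner and site caller not given in the sources used here. The deposited RPM values (reads scaled to a library total) were whole multiples of 1 read for 100% of values within 0.01 reads, so reads were recovered. The deposited fraction of libraries with reads at a site was recomputed and matched at 178115 of 178115 sites within 0.01. All 181936 deposited hexamers lay at their stated place in GRCm38.p6, the build used for sequences. Totals behind the RPM were 11085428, 14855484 and 14064461 reads.

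Partners, lists and tests were chosen with earlier results of these data known. Python 3.11.15, pandas 2.3.3, scipy 1.17.1 and limma 3.58.1 in R 4.3.3 were used, with edgeR 4.0.16 and DESeq2 1.42.0 as alternatives. Library differences were tested by exact sign-flip permutation. The pair test used log2(RPM + 0.05), a summed mean of 0.5 RPM and the library as block, since each ratio is taken within a library. It was also run on simulated pairs with changes set equal in both directions. That setting is unlike these data, so the run does not show how well the test works here. A-rich means 12 or more A, or 6 A in a row, among the 20 bases downstream. CpG-rich means an observed over expected ratio of at least 0.6 and 50% GC in 500 bases either side of the start. A gene's level is the sum of own-strand sites in its M21 exons or up to 1000 bases past its end. Intronic sites are left out, and a site that fits several genes counts for 1 of them, protein-coding genes first. Levels of overlapping genes can thus be too low. Named are the 15 members of highest mean RPM with reads in every library, up to 4 per list and the 5 most-read called pairs in each direction; Gm11539, Gm4349 and the pair at Snrnp70 were chosen after their values were seen. No unique molecular identifiers are mentioned, so intervals cover counting error only.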

Additional observations from a re-analysis of the deposited data

Results flagged for a closer look

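Sites of the same class outside the autosomes, which no comparison above uses, held reads in replicates 1 and 2. On the X chromosome 42 such sites had 212 reads in replicate 1 and 163 in replicate 2. On the mitochondrial genome 16 sites had 423 and 527 reads, and none of them had AATAAA. Each count is above the 3 reads that a count of 0 allows. Replicate 3 listed 0 reads at both sets.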

How the results depend on the processing

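The share of autosomal reads at members (0.0598%) was 0.0416% with sites in at least 2 libraries, 0.0568% without A-rich sites, 0.0521% of the full RPM total and, chosen after seeing the data, 0.0569% without the Prmt5 site. Leaving out 1 library at a time gave 139 to 177 members with reads in every remaining library. The AATAAA difference to intergenic sites was -3.93 with sites in at least 2 libraries, beyond the spread of libraries, and changed sign to 0.407 points without A-rich sites, 0.111 with hexamers searched in 40 genome bases and 2.43 weighted by RPM without the Prmt5 site (added), and ran from -1.78 to 1.64 with 1 library left out. That to introns' antisense sites became -4.44 with sites in at least 2 libraries and ran from -1.53 to 3.22. That to terminal exons became 2.50 with sites in at least 2 libraries, -15.1 weighted by RPM and -12.5 so weighted without the Prmt5 site (added). The signal against no signal difference was 0.860 with a pseudocount of 0.5. The upstream minus downstream difference was -12.3 in a window of 1000 bases. It became 51.6 with intronic sense sites only and antisense sites of every class (added). The median distance was 626 bases to the closest protein-coding start. The partner share of 5.82% was 6.78% for genes at 10 RPM, 1.31% with members in at least 2 libraries and 3.74% to 4.77% with 1 library left out. Called pairs (11: 10 farther, 1 nearer) ranged from 2 to 10 with 1 library left out (farther 1 to 9), were 3 with edgeR (2 farther) and 2 with sites in every library (2 farther, 0 nearer), and the nearer call, Ppp2r3d, left 0 with upstream sites only (added). Depth limits most members, whose median is 4 reads over all libraries.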
